A study of Caenorhabditis elegans with 2 samples.

Results

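The 6 genes described here, idhg-1, idhg-2, idha-1, idhb-1, idh-1 and idh-2, encode the isocitrate dehydrogenases of the nematode Caenorhabditis elegans, out of 19973 protein-coding genes in the Ensembl annotation. The family was chosen on the signal of the idhg-1 peak in the pooled and replicate lists, and its members were then listed by name, so their peak values are a description and carry no test. The data are chromatin immunoprecipitation followed by sequencing (ChIP-seq) for NHR-11, a nuclear hormone receptor, in late embryos. Both libraries came from strain OP305, which carries the unc-119(ed3) mutation and an integrated transgene, wgIs305, that supplies NHR-11 fused to eGFP. The embryos were of mixed sex, the whole organism was used, and 2 biological replicates formed the only group, so no second genotype, treatment or time was compared. For each gene, all peaks with a summit within 2000 bp of the 5' end were taken from the authors' pooled list (9931 peaks), their replicate 1 list (25795 peaks) and their replicate 2 list (29222 peaks), on the ce11 build.

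Isocitrate dehydrogenases convert isocitrate to 2-oxoglutarate. The NAD-dependent enzyme is a mitochondrial complex of alpha, beta and gamma subunits and catalyses a regulated step of the citric acid cycle, whereas the NADP-dependent enzymes are separate proteins that supply NADPH. Nuclear hormone receptors are DNA-binding transcription factors, many of which control lipid and energy metabolism in animals. Among the genes here, idha-1 and idhb-1 are annotated by RefSeq as putative alpha and beta subunits of the NAD-dependent enzyme, idhg-1 and idhg-2 as further subunits of it (gamma by their names), and idh-1 and idh-2 as NADP-dependent enzymes. The neighbour of idhg-1, mlcd-1, encodes malonyl-CoA decarboxylase, which breaks down the fatty acid synthesis precursor that also inhibits fatty acid import into mitochondria.

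The finding rests on 2 stretches of DNA, the idhg-1 site and the idh-2 site, because these were the only members with a pooled peak among the strongest 500. Each is shown over 300 bases centred on its pooled summit, from the RefSeq WBcel235 genome (the ce11 assembly), on the plus strand, which is the coding strand of both isocitrate dehydrogenase genes. The first is chrIII:4568603-4568902 and the second chrX:11215437-11215736. Capitals mark the letters GAGAGA and CACGTG in the first and AGGTCA in the second. The 5' end of idhg-1 is base 195 of the first sequence, while that of idh-2 lies beyond the second.
idhg-1 site: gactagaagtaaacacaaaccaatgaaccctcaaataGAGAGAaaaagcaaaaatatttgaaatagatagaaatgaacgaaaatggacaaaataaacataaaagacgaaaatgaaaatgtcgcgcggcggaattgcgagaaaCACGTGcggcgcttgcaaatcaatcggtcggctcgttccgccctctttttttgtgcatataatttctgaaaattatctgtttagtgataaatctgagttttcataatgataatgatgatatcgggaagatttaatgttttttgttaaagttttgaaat
idh-2 site: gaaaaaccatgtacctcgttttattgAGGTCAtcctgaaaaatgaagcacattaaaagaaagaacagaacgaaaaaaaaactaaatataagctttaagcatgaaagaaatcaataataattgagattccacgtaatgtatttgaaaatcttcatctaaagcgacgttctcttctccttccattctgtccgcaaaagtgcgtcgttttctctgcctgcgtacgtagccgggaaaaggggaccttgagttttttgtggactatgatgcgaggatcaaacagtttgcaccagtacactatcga

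In the pooled list and in both replicates, NHR-11 signal was highest at idhg-1 and second highest at idh-2 among the 6 genes. The strongest pooled peaks of idhg-2 and idha-1 lay below the median of the pooled list, and idh-1 and idhb-1 had no pooled peak. Of the 6 genes, 4 had a pooled summit within 2000 bp of the 5' end, against 33.2% of all protein-coding genes. Among the 9931 strongest peaks of 1 replicate alone, the count was 2 without replicate 2 (idhg-1 and idh-2) and 4 without replicate 1 (idh-1 in place of idha-1). In the authors' thresholded list of 101 peaks, 1 of the 6 had one, against 0.596% of protein-coding genes. That gene was idhg-1, which enters each of these counts through the peak on which the family was chosen. Replicate 1 gave 5 of 6 genes a summit (background 65.6%) and replicate 2 also gave 5 of 6 (background 70.2%), so a summit in a replicate list alone said little about a gene. These lists reached far down: the weakest listed signal was 9.63 in replicate 1, 7.92 in replicate 2 and 21.6 in the pooled list, in the unit of the authors' peak caller. As deposited, the pooled and replicate lists hold background entries as well as peaks. At a deposited false discovery rate of at most 0.05 there were 30 pooled, 152 replicate 1 and 47 replicate 2 entries. Every entry listed for idhg-2, idha-1 and idh-1 had a rate between 0.642 and 0.946. The thresholded list was the 101 strongest pooled peaks, the weakest at 55.2, and the strongest pooled peak outside it had 55.1. Since the lists held no read counts, library depth was unknown and no counting interval could be given.

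**Figure D1:**
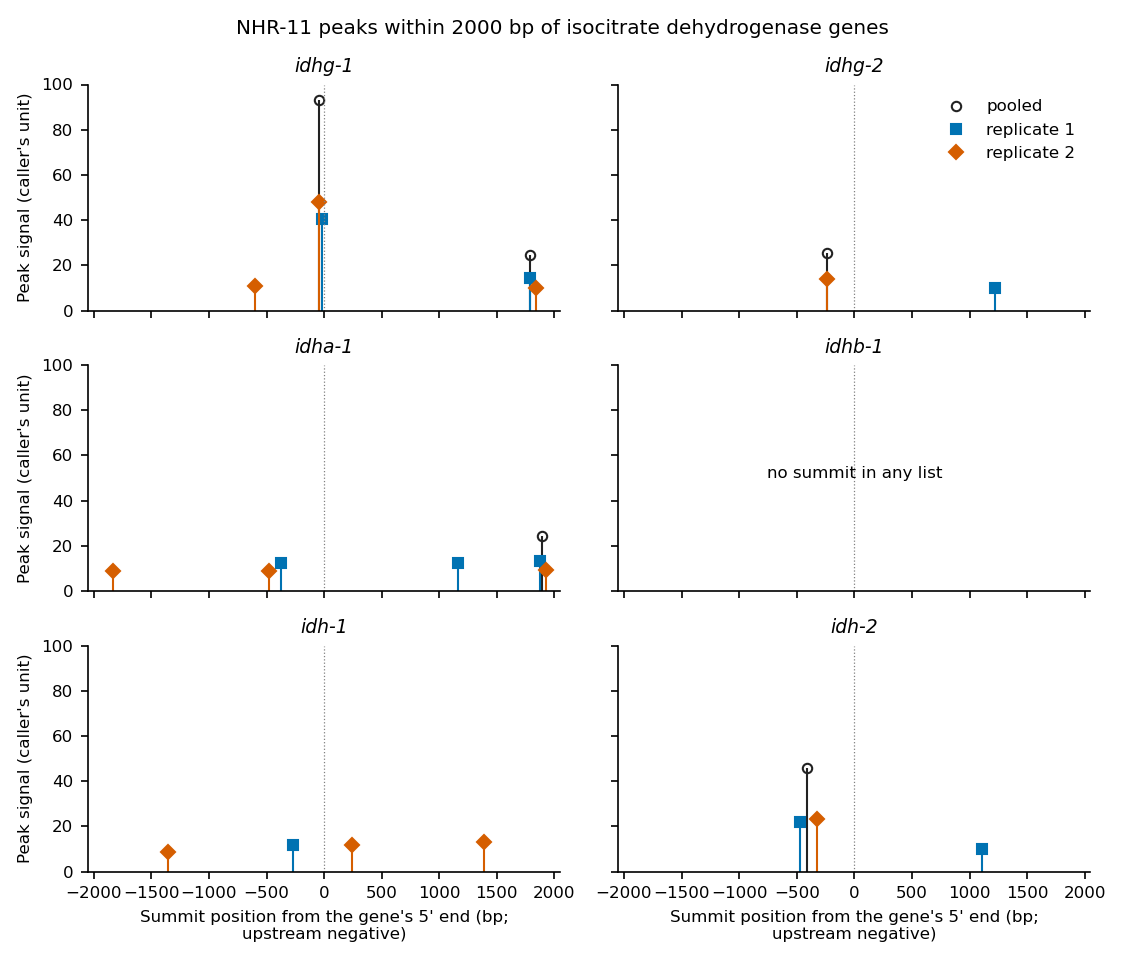
Summits of NHR-11 peaks around the 6 isocitrate dehydrogenase genes, with the distance from the gene's 5' end in bp on the x axis and the peak signal in the caller's unit on the y axis; open circles are the pooled list, squares replicate 1 and diamonds replicate 2. The idhg-1 panel reaches 93.3 beside the 5' end, idh-2 reaches 45.7 upstream, and idhb-1 has no summit.

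The idhg-1 gene (WBGene00009440, chromosome III, 4568797 to 4571865, plus strand) carried the strongest peak of the family. Its signal was 40.3 in replicate 1, 48.1 in replicate 2 and 93.3 in the pooled list. Both replicates were thus high, at 3.15 and 4.48 times the median signal of their own lists. The peak ranked 41 in replicate 1, 15 in replicate 2 and 12 in the pooled list, where 13 protein-coding genes had a stronger summit within 2000 bp. The false discovery rate deposited with the peak was 0.037, 0.011 and 0.0189 in these lists; in the pooled list 27 peaks shared that lowest rate.

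The replicates placed the idhg-1 peak at nearly the same position. The replicate 1 summit lay 16 bp and the replicate 2 summit 44 bp upstream of the 5' end, 28 bp apart, and the peaks shared 335 bp. The log2 ratio of replicate 1 to replicate 2 was -0.25, within the SD of 0.71 of this ratio over the 100 thresholded peaks with a peak in both replicates (median 0.16). The pooled signal was 1.06 times the sum of the replicate signals, close to the median of 0.996 over thresholded peaks, so the pooled value adds no independent measurement. Nearly all peaks had the same width within a list (356 bp in the pooled and replicate 2 lists and 370 bp in replicate 1), with the summit at the midpoint.

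The pooled summit was intergenic, and the peak covered the idhg-1 5' end. The annotation gives idhg-1 a pair of transcript starts, the outer one at 4568797 and an inner one 216 bp downstream at 4569013. RefSeq lists only the inner start, from which the pooled summit was 260 bp away and which the peak did not reach. A weaker second peak lay in an idhg-1 intron, 1784 bp downstream of the 5' end in the pooled list (signal 24.5, rank 6235). Its replicate signals were 14.3 and 10.1, with summits 53 bp apart. The next summit in the pooled list, just outside the 2000 bp window, was 2528 bp downstream with a signal of 32.3.

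The idhg-1 site is shared with mlcd-1, which is transcribed in the opposite direction (WBGene00009439, minus strand). The 5' ends of the pair lie 667 bp apart, and the pooled summit was 44 bp from that of idhg-1 and 623 bp from that of mlcd-1. In replicate 1 these distances were 16 and 651 bp, and in replicate 2 they were 44 and 623 bp. The peak covered the outer 5' end of idhg-1 in all 3 lists. In none of them did it reach the inner idhg-1 start or the 5' end of mlcd-1. With the RefSeq start of idhg-1 the pair lay 883 bp apart and the summit was again nearer to idhg-1 (260 bp) than to mlcd-1 (623 bp). Close to mlcd-1 itself, 70 bp upstream of its 5' end, replicate 2 listed a separate weak peak with a signal of 11.0 (rank 13763) and neither replicate 1 nor the pooled list had one. The next thresholded peak on the chromosome lay 13471 bp upstream of idhg-1, nearest to imph-1 (named after its value was seen), with a signal of 55.5.

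**Figure D2:**
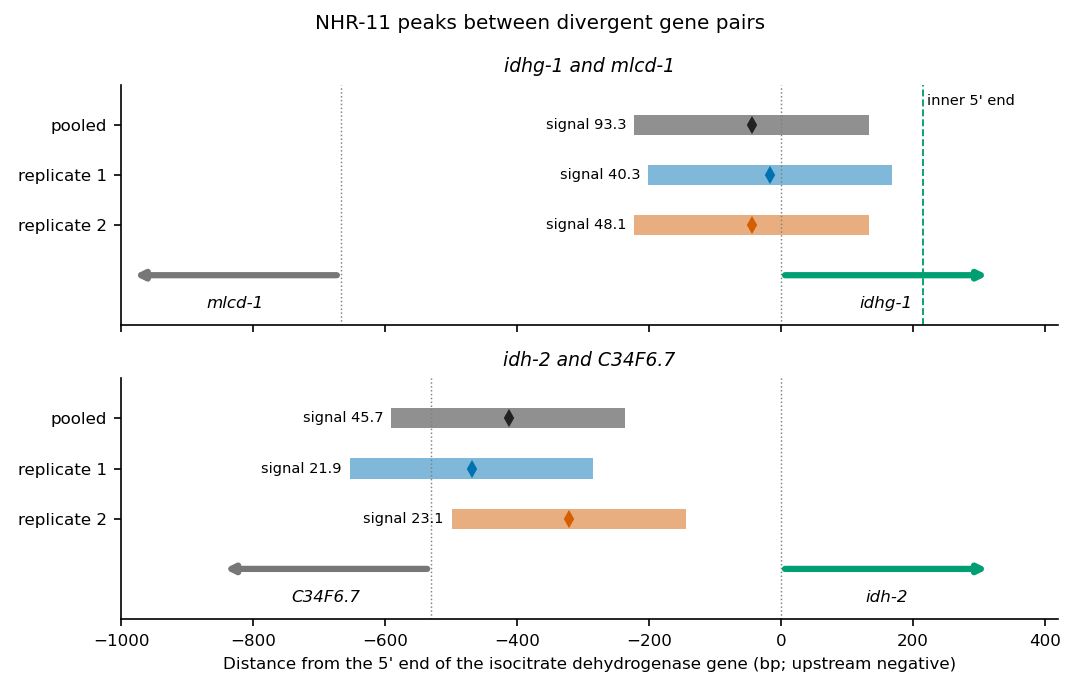
Position of the strongest peak of idhg-1 (top) and idh-2 (bottom) in each list, with distance from the member's 5' end in bp on the x axis; bars are peaks, diamonds summits, dotted lines the 5' ends, the dashed line the inner idhg-1 start and arrows the direction of each gene, not its length. The idhg-1 peak sits over the idhg-1 end of its gap in all 3 lists, whereas the idh-2 peak sits nearer to the C34F6.7 end.

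The second highest member was idh-2 (WBGene00007942, chromosome X, 11216000 to 11218150, plus strand), an NADP-dependent enzyme gene. Its strongest peak had a signal of 21.9 in replicate 1, 23.1 in replicate 2 and 45.7 in the pooled list. The replicates were close to each other, with a log2 ratio of -0.08, and both lay above every peak of idhg-2, idha-1 and idh-1. The peak ranked 1393 in replicate 1, 411 in replicate 2 and 298 in the pooled list, below the 101 thresholded peaks, with pooled and replicate false discovery rates of 0.21, 0.355 and 0.216. With idhg-1, it made 2 of 6 members with a pooled summit among the strongest 500, against 2.34% of protein-coding genes. The family was chosen on the idhg-1 peak, so within this count only idh-2 is a separate observation. The pooled signal of the idhg-1 site was 2.04 times that of the idh-2 site, and the ratio was 1.84 in replicate 1 and 2.08 in replicate 2.

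Like the idhg-1 site, the idh-2 site lay between divergent genes, but at the far side of the gap. The 5' ends of idh-2 and C34F6.7 (WBGene00007941, annotated by RefSeq as an uncharacterized protein) lie 530 bp apart. The pooled summit was 413 bp upstream of idh-2 and 117 bp upstream of C34F6.7. Replicate 1 placed it 469 bp from idh-2 and 61 bp from C34F6.7, and replicate 2 placed it 321 and 209 bp away, so the replicate summits were 148 bp apart and the gene nearest to the summit was C34F6.7 each time. The peaks overlapped by 215 bp. Over the 98 peaks of pooled ranks 251 to 350 with a peak in both replicates, the median distance between replicate summits was 44 bp. A further replicate 1 peak in an idh-2 intron, 1110 bp downstream, had a signal of 10.2, and the first pooled summit beyond the window was 2407 bp downstream (32.7).

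The other gamma subunit gene, idhg-2 (WBGene00016266, chromosome I, 6974558 to 6977071), had no peak that both replicates shared. Replicate 2 and the pooled list placed a summit 236 bp upstream of its 5' end, with signals of 14.1 and 25.6 (ranks 5694 and 5228). Replicate 1 had no peak there and listed 1 in an intron, 1220 bp downstream, with a signal of 10, close to the weakest it listed. The nearest thresholded peak was 192599 bp away. The pooled idhg-2 signal was thus below the pooled list's median of 25.9, while its paralogue idhg-1 stood at 3.6 times that median.

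The alpha subunit gene idha-1 (WBGene00009664, chromosome I, 8606549 to 8608631) had 2 pairs of overlapping replicate peaks, both weak. The pair in its 3' UTR, 1877 and 1928 bp downstream of the 5' end, had signals of 13.2 in replicate 1 and 9.52 in replicate 2, and a pooled signal of 24.5. The upstream pair, 372 and 481 bp from the 5' end, had 12.6 and 9.08 and no pooled peak. Of this pair, the replicate 1 summit fell in the noncoding RNA gene F43G9.16 and the replicate 2 summit in intergenic DNA. Replicate 1 alone listed an intronic peak 1160 bp downstream (12.4), and replicate 2 alone a peak 1833 bp upstream, in an intron of lmd-1 (8.92). At both places replicate 1 was the higher, by a log2 ratio of 0.47, which is less than the SD of 0.59 over 6182 pooled peaks with a peak in both replicates. The 3' UTR summits were also the members' summits closest to the edge of the 2000 bp window.

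No summit lay within 2000 bp of the beta subunit gene idhb-1 (WBGene00007993, chromosome X, 14170730 to 14174063) in the pooled or replicate lists, which held for 1 of 6 members and 14.3% of protein-coding genes. The nearest summits were 4209 bp away in replicate 1 (signal 14.0), 4059 bp in replicate 2 (16.6) and 4099 bp in the pooled list (26.8), all on the downstream side. Taking the RefSeq 5' end, which is 674 bp further into the gene, gave no summit either. A peak below the weakest listed signal would not appear in these files.

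The NADP-dependent enzyme gene idh-1 (WBGene00010317, chromosome IV, 9439078 to 9441107) had weak peaks that the replicates did not share. Replicate 1 listed a single summit 268 bp upstream of the 5' end, with a signal of 11.9. Replicate 2 listed 3 summits, in coding exons 244 and 1388 bp downstream (11.6 and 13.2) and 1359 bp upstream (8.82). None overlapped the replicate 1 peak, and the nearest pooled summit was 6207 bp away. The 3 annotated transcript starts of idh-1 span 1701 bp, and counting from all of them did not bring in a pooled summit.

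Ordered by the strongest pooled signal, the members ran idhg-1 (93.3), idh-2 (45.7), idhg-2 (25.6) and idha-1 (24.5), with idh-1 and idhb-1 not listed. Replicate 1 gave idhg-1 40.3, idh-2 21.9, idha-1 13.2, idh-1 11.9 and idhg-2 10. Replicate 2 gave idhg-1 48.1, idh-2 23.1, idhg-2 14.1, idh-1 13.2 and idha-1 9.52. The first 2 places were the same in both replicates, while the order of the remaining 3 genes was inverted. Those 3 spanned 1.31-fold in replicate 1 and 1.48-fold in replicate 2. At idhg-2 and idh-1 the replicate values came from peaks that did not overlap, so the orders do not compare the same sites. An SD of the replicate ratio at overlapping peaks corresponds to 1.51-fold, which does not measure the spread between genes. The 3 genes were therefore not ordered. Peaks overlapping between replicates, with both summits in the window, were found at 3 of 6 members (idhg-1, idha-1 and idh-2), against 30.9% of protein-coding genes.

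**Figure D3:**
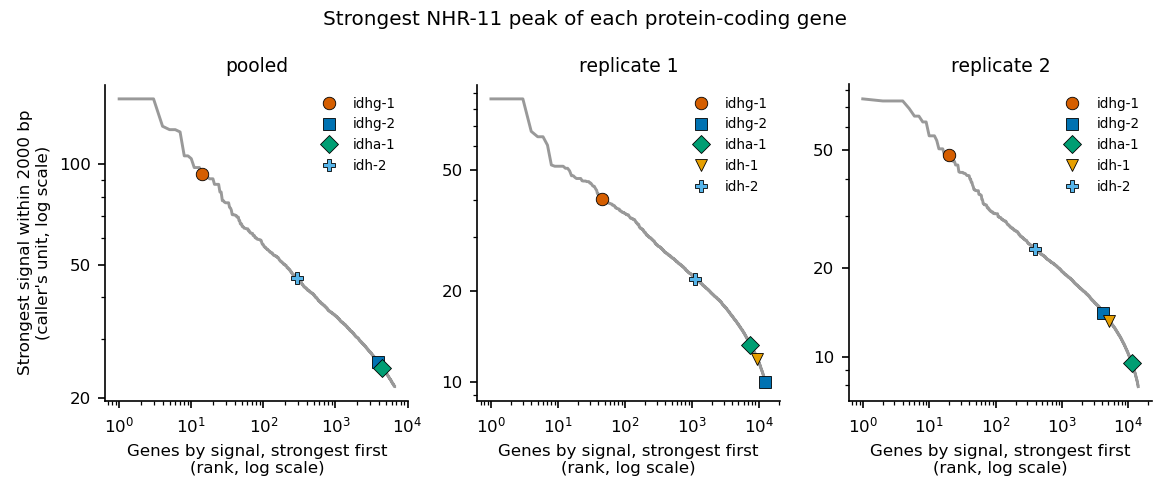
Strongest signal within 2000 bp of the 5' end for every protein-coding gene with a summit, against its rank, in the pooled list and each replicate; both axes are on a log scale, the line is all genes and the symbols are the members listed. In all 3 panels idhg-1 lies highest on the curve, idh-2 is next, and the other members listed have lower signals, in a different order in each replicate.

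**Figure D4:**
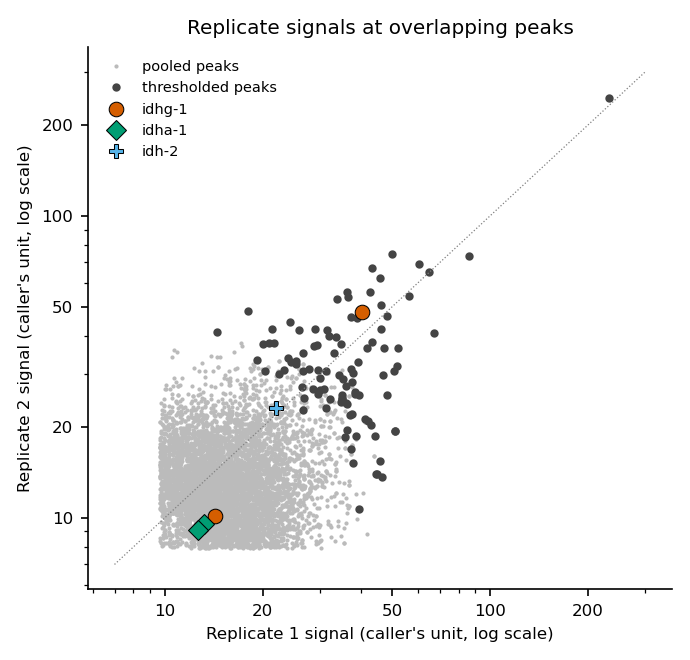
Replicate 2 signal against replicate 1 signal, both on a log scale in the caller's unit, for pooled peaks overlapped in both replicates; large symbols are the overlapping replicate peak pairs at members and the dotted line marks equal signals. The upper idhg-1 pair (40.3 and 48.1) lies among the thresholded peaks, the idh-2 pair (21.9 and 23.1) lies below them near the dotted line, and the idha-1 pairs (13.2 and 9.52, 12.6 and 9.08) lie among the weak peaks.

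The peaks next to the idhg-1 site in pooled rank were close to it in pooled signal but differed more in their replicate signals. Directly above it were the sites nearest to tasp-1 (97.8), F43C1.7 (99.3) and F55G7.5 (104), and directly below it those nearest to the noncoding RNA gene ZK1321.5 (92.1), rpl-35 (91.3) and his-68 (90.5). Their log2 replicate ratios ran from -0.63 at his-68 to 0.71 at F55G7.5, a range that includes the -0.25 of idhg-1. Around the idh-2 site, the 98 peaks of pooled ranks 251 to 350 present in both replicates had a median log2 ratio of 0.25 (SD 0.74), and the -0.08 of idh-2 lay within that spread. Among 48 other thresholded peaks within 1000 bp of a protein-coding 5' end and present in both replicates, the most like idhg-1 in the log2 signals of the 2 replicates were those of atx-2 (38.9 and 45.9, distance 0.084), srlf-17 (37.4 and 46.1, distance 0.125) and tasp-1 (46.1 and 50.6, distance 0.208). This likeness is over 2 values only.

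Divergent neighbours were common in the family. For 5 of 6 members the upstream protein-coding gene ran in the opposite direction (45.0% of protein-coding genes, 8986 of 19968), with idh-1 the exception. The intervening gap was 529 bp at idh-2, 666 bp at idhg-1, 861 bp at idhg-2, 1289 bp at idha-1 and 1976 bp at idhb-1, beside a median of 1397 bp over all divergent neighbours. The members with the strongest peaks, idhg-1 and idh-2, had the shortest gaps, although the shortest was at idh-2. This describes the 5 divergent members and includes the idhg-1 peak on which the family was chosen. Of the 101 thresholded sites, 15 (14.9%) lay between the 5' ends of a divergent protein-coding pair with both ends within 1000 bp, the idhg-1 site among them; of all 9931 pooled peaks, 280 (2.82%) did.

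The DNA under the idhg-1 summit had an uneven base composition. Over the 300 bases shown, G and C made up 33.7%, close to the medians of the pooled windows (34.0%) and of all promoters (34.3%). In steps of 50 bases, the values were 36.0, 20.0, 50, 52.0, 22.0 and 22.0%. The central 100 bases, around the summit, were therefore G and C rich between neighbouring steps that were poor in both. At these steps the medians of thresholded windows lay between 34.0 and 40.0%. In bases 101 to 150 and 151 to 200, 25.7 and 20.8% of thresholded windows were at or above the idhg-1 value. The idh-2 window, at 38.0% in all, was poor in G and C in bases 51 to 150 (22.0 and 24.0%) and richer from base 151 on (48.0, 52.0 and 44.0%). None of the 5 pooled member peaks matched another place in the genome at 90% identity over at least 50 bp.

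Of 7 motifs searched on both strands, the idhg-1 window held only GAGAGA and the idh-2 window only AGGTCA, a hormone receptor element. GAGAGA began at base 38 of the idhg-1 window, well away from the summit, and was present in 30.7% of thresholded windows, 20.0% of pooled windows and 21.8% of promoters (from 250 bases before to 50 after each protein-coding 5' end). AGGTCA began at base 27 of the idh-2 window and was present in 6.93, 6.82 and 8.27% of these sets. Neither window held GGGTCA, which was in 6.93% of thresholded windows, or AAGTCA, which was in 15.8% of them. The receptor element CAAAGTCCA was in 0 of 101 thresholded windows. TATAAA was absent from both windows and present in 34.7% of the thresholded ones. GATAAG, also absent from both, was in 4.95% of thresholded windows, 11.1% of pooled windows and 16.7% of promoters. CACGTG, the E-box bound by many basic helix-loop-helix factors, was added after the sequence had been read. It lay at chrIII:4568745-4568750, starting 8 bases before the summit and 52 bp upstream of the idhg-1 5' end. It was found in 5 of 101 thresholded windows (4.95%), 4.37% of pooled windows and 5.82% of promoters, and in none of the atx-2, srlf-17 and tasp-1 windows.

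The other enzymes of the citric acid cycle had pooled signals below those of idhg-1 and idh-2, and 5 of them above those of idhg-2 and idha-1. Of 18 such genes, 8 had a pooled summit within 2000 bp (background 33.2%), 3 of them within 1000 bp, and 0 had a thresholded one (background 0.596%), with a median strongest pooled signal of 26.4 beside 26.8 over all protein-coding genes with a summit. The highest was sucl-2, which encodes a succinyl-CoA ligase alpha subunit, at 34.0 (19.8 in replicate 1 and 12.1 in replicate 2), 1208 bp downstream of its 5' end. It was followed by the succinate dehydrogenase gene sdha-1 (29.0), the dihydrolipoamide dehydrogenase gene dld-1 (27.3), the mitochondrial aconitase gene aco-2 (26.6) and sucl-1 (26.3). The 3 genes with a summit within 1000 bp were sdha-1, dld-1 and aco-2. Their strongest summits lay 504, 329 and 480 bp upstream of the 5' ends. Another gene's 5' end was nearer to each of these summits (302, 132 and 90 bp). At the sdha-1 and aco-2 sites replicate 2 had signals of 21.0 and 18.5 and replicate 1 had no peak. Replicate peaks overlapped at 11 of the 18 genes (background 30.9%), and fum-1, the fumarase gene, had no summit in any list. In the pyruvate dehydrogenase list 3 of 5 genes had a pooled summit (background 33.2%), at pdhk-2 (35.2), pdha-1 (31.0) and pdp-1 (23.0), and 0 had a thresholded one. The pdhk-2 and pdha-1 summits lay 1990 and 1881 bp downstream of the 5' ends, near the window edge. The pdp-1 summit was 155 bp upstream of its 5' end, and another gene's 5' end was nearer (27 bp). At the pdha-1 and pdp-1 sites replicate 2 had no overlapping peak.

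Of 6 genes of malonyl-CoA and fatty acid metabolism, 3 had a pooled summit (background 33.2%) and 2 of these a thresholded one (background 0.596%). The first was mlcd-1, counted through the idhg-1 peak on which the family was chosen, so it adds no separate site. The other was cpt-6, a carnitine acyltransferase gene, with a signal of 37.6 in replicate 1, 28.1 in replicate 2 and 59.9 in the pooled list (rank 62), 41 bp downstream of its 5' end. The false discovery rate at cpt-6 was 0.106 in the pooled list, 0.04 in replicate 1 and 0.119 in replicate 2. The carnitine palmitoyltransferase gene cpt-2 had 21.8, close to the lowest pooled value, and pod-2, the acetyl-CoA carboxylase gene, had no summit in any list. The cpt-2 summit was 761 bp upstream of its 5' end, and another gene's 5' end was nearer (289 bp). Among 10 genes that make or use isocitrate, 2-oxoglutarate or NADPH, 6 had a pooled summit (background 33.2%) and 0 a thresholded one. The highest was icl-1, which encodes the glyoxylate cycle enzyme that competes for isocitrate, with 21.0 and 18.0 in the replicates and 39.0 in the pooled list, 61 bp upstream of its 5' end. Next came men-1 (35.4), pyc-1 (31.8), gdh-1 (30.0) and gspd-1 (29.4), which encode malic enzyme, pyruvate carboxylase, glutamate dehydrogenase and glucose-6-phosphate dehydrogenase. At the gdh-1 site neither replicate had an overlapping peak. The gspd-1 summit was 1969 bp upstream of its 5' end, and another gene's 5' end was nearer (243 bp). The D-2-hydroxyglutarate dehydrogenase gene dhgd-1 had no summit in any list. The genes fum-1, pod-2 and dhgd-1 were named after their values were seen.

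**Figure D5:**
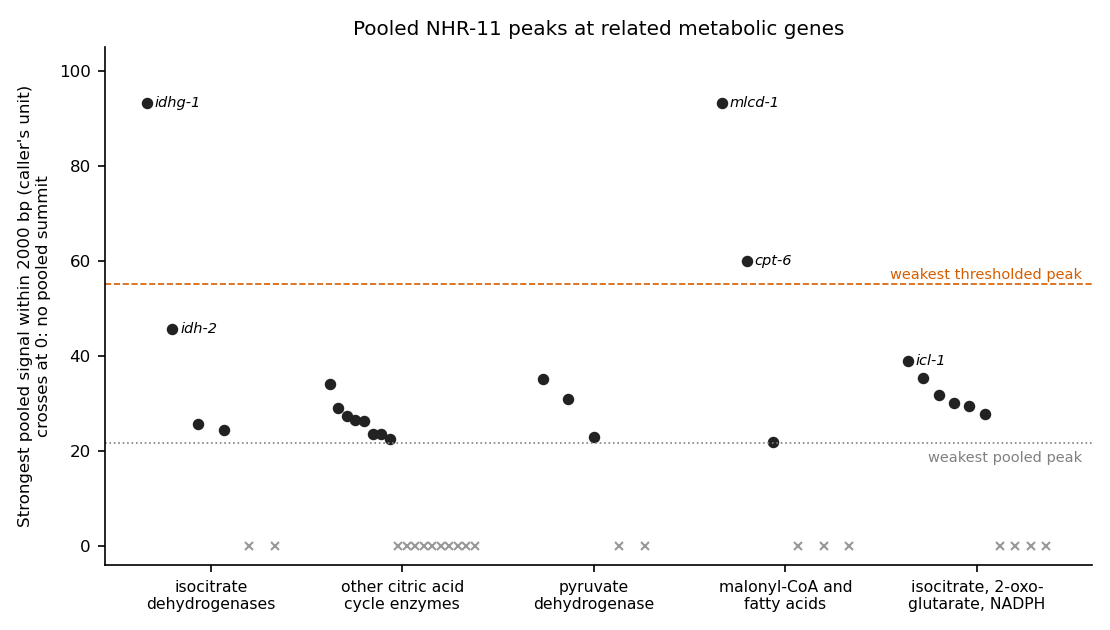
Strongest pooled signal within 2000 bp of the 5' end, in the caller's unit, for each gene of the isocitrate dehydrogenase family and 4 related lists; crosses at 0 are genes with no pooled summit, the dashed line is the weakest thresholded peak (55.2) and the dotted line the weakest pooled peak (21.6). Points above the dashed line are idhg-1, mlcd-1 (the same peak) and cpt-6, and idh-2 (45.7) and icl-1 (39.0) follow below it.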

How the data were processed

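Peak lists in narrowPeak format on ce11 were analysed; ce10 lists were not used. Per the deposited file descriptions, alignments of 1 replicate and a control gave each replicate list, alignments of both gave the pooled list, and filtering these by reproducibility (IDR) gave the thresholded list. Aligner, caller and settings are not given in the sources used here. Each deposited signal is the authors' value in their caller's unit, ranked only within a list and compared at the same site between replicates. The deposited −log10 column was taken, from its format and values, as a q-value, here called the false discovery rate. The control was not analysed here.

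Summits were measured from gene 5' ends (Ensembl 115, WBcel235), counted from 1. Ranks, overlaps of at least 1 bp, replicate ratios, motif matches and the shares of all protein-coding genes called by the same rule were computed with Python 3.11.15, numpy 2.4.6 and pandas 2.3.3, and matches elsewhere with BLAST 2.17.0. Window, overlap and motif steps were tested on simulated data. No hypothesis test was run, since members and lists (4 pathway lists, 39 genes) were chosen with earlier results of these data known. Named were all members, genes sharing their strongest peak, up to 5 listed genes per pathway, 3 peaks above and 3 below idhg-1 in rank, and the 3 most alike; other names are marked.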

Additional observations from a re-analysis of the deposited data

How the results depend on the processing

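With 2 replicates of 1 group, no value here carries a test, and unknown depth leaves the limit of detection at the weakest listed signals. The count of 6 members with a thresholded summit stayed at 1 (idhg-1) in windows of 500 and 1000 bp, from all transcript starts, by any base of the peak, among the strongest 50, at a false discovery rate of at most 0.05, with RefSeq starts (chosen after seeing the data) and without either replicate (1 to 1); it was 2 among the strongest 500 and also 2 among the strongest 2000 pooled peaks, with idh-2. The 4 members with a pooled summit became 1 at that false discovery rate and 2 to 4 without a replicate: without replicate 2, idhg-1 and idh-2 were the 2 left. The 8 other citric acid cycle genes became 3 at 500 bp, 3 at 1000 bp and 0 in the thresholded list, and 7 to 8 without a replicate, with 4 of the 8 genes shared each time. Overlap in both replicates was found at 2 to 3 members under 6 alternatives. When summits had to lie within 100 bp, idh-2 dropped out. When both peaks had to be among the strongest 2000, idha-1 dropped out. The idhg-1 site, at pooled rank 12, tied for rank 1 by false discovery rate. It ranked 15 without replicate 1 and 41 without replicate 2, which are its ranks in the remaining replicate's own list given above. Its log2 replicate ratio was -0.51 and -0.49 under other scalings. No paired analysis was possible because there was 1 group only.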
